A study of Rattus norvegicus with 36 samples.

Results

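Choroid plexus genes were followed in RNA of the female rat hippocampus. Of 10 genes listed as markers of the choroid plexus epithelium, 9 were found by symbol among the 20603 rows of the deposited table: Ttr, Kl, Folr1, Aqp1, Kcnj13, Clic6, F5, Slc4a5 and Sostdc1. Otx2 was not analysed here. The table holds 36 columns, named hippo1 to hippo36, and the series holds 36 hippocampal samples, all total RNA from frozen tissue. By their labels the animals were acyclic at 16 months (Acyc16m), without ovaries since 9 months of age and sampled at 10 months (RegOVX10m), acyclic at 9 months (Acyc9m), irregular at 9 months (Irreg9m), regularly cycling at 9 months (Reg9m) or sampled at 6 months (Reg6m), with 6 animals in each; neither strain nor genotype was given. The labels Reg6m, Reg9m and RegOVX10m share the prefix Reg. A column name carries the tissue and a running number only, so no column could be tied to an age or cycle status, and the 36 columns were described as 1 ungrouped set. No statement below is about age, cycling or surgery.

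The choroid plexus is a folded sheet of secretory epithelium in the brain ventricles, and a strip of it lies in the lateral ventricle along the hippocampus. Its cells make cerebrospinal fluid by moving ions, bicarbonate and water, and they carry hormones and vitamins between blood and fluid. Transthyretin, the product of Ttr, is the classic abundant transcript of this epithelium, and it binds thyroid hormone and the retinol carrier. In bulk RNA a choroid plexus transcript can come from plexus attached to the sample or from low expression in other cells; which of these applied was not tested, and fewer cells of a type cannot be told apart from less RNA per cell.

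All 9 genes had their highest value in the same column, hippo8, which held the highest value of 1.79% of all genes in the table. Outside that column most of these genes were represented by few reads, and they varied together only weakly. Ttr and Clic6 were the pair whose Pearson correlation passed the test both with and without hippo8. By rank correlation Clic6 with Slc4a5 and Kcnj13 with F5 passed both ways too. Values are the authors' normalized counts. In the rows with the fewest reads, values inside a preset window around 1 had a median of 0.996 (median over columns, range 0.874 to 1.26). Values outside the window were left out, so that centre was partly set by it, and 1 unit was taken as about 1 read. Column totals lay between 34455978 and 35985904, with 35133764 in hippo8. The normalized counts are not scaled by transcript length, so levels are compared between columns and not between genes.

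Promoter sequence is shown for Kl and Slc4a5, as examples of members whose value in hippo8 was more than 4 times the median of the other 35 columns. Each line gives the 250 bases before the start used in the RefSeq promoter table, build GRCr8, plus strand; Kl lies at chr12:5325753-5326002 and Slc4a5 at chr4:117283044-117283293. Capitals would mark the motif TAATCC, a core recognised by Otx2 and related homeodomain factors, or the TATA-box letters TATAAA, on either strand, and neither motif occurs in these 2 windows.
Kl: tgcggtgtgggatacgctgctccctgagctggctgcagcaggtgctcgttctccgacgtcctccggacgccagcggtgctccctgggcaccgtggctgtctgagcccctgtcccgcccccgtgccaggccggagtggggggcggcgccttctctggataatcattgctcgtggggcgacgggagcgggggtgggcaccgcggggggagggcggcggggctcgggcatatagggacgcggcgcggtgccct
Slc4a5: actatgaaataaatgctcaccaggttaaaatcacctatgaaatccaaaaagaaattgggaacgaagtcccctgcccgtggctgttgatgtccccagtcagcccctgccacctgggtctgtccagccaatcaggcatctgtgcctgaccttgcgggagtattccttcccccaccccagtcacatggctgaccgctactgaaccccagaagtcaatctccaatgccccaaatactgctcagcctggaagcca
The Kl window is 73.2% G and C with 27 CpG dinucleotides, and the Slc4a5 window is 52.8% G and C with 4. The table held a promoter for 6 of the 9 members (Ttr, Kl, Aqp1, Kcnj13, F5 and Slc4a5). TAATCC occurred in 0 of these 6 windows and in 6.34% of all 33469 windows of the same length. TATAAA occurred in 2 of the 6, those of Aqp1 and Kcnj13, and in 12.9% of all windows. A match of letters is a description of the window and says nothing of binding.

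**Figure D1:**
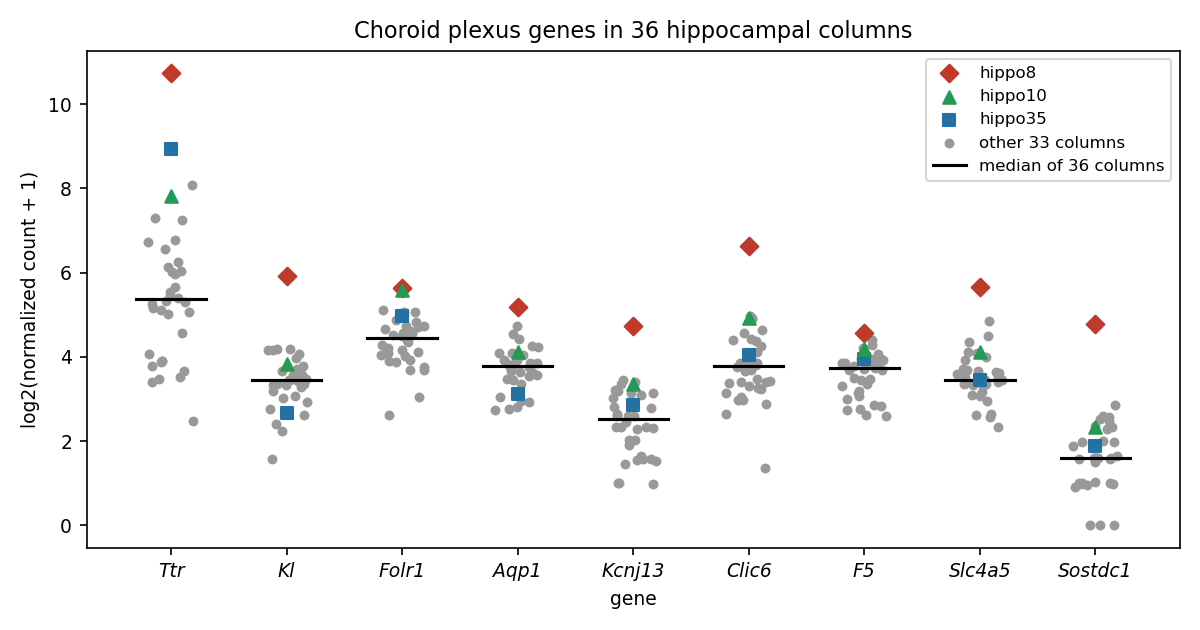
Each point is 1 of 36 columns; the y axis is log2(normalized count + 1), the x axis the gene, and the black line the median of the 36 columns. The red diamond, hippo8, is the highest point for all 9 genes, while hippo35 (blue square) is second highest for Ttr and near the median for Clic6 and Slc4a5.

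Among the carrier and receptor genes, Ttr had by far the widest spread. Its normalized count was 1699 in hippo8, 40.4 in the median column and 4.59 in hippo24, the lowest, a 370-fold range, or 8.25 on the log2(value + 1) scale. The next values below hippo8 were 489 in hippo35, 270 in hippo18 and 225 in hippo10, and 8 of the 36 columns stood at 100 or more. Ttr also varied widely among the other 35 columns, where its range was still 6.45 (log2). Kl, which encodes klotho, a membrane protein made in plexus epithelium and kidney, had a normalized count of 59.7 in hippo8, 9.99 in the median column and 1.95 in hippo30. No other column exceeded 17.2 for Kl, so hippo8 was 6.03 times the median of the other 35 columns and stood clear of them. Folr1, the folate receptor that carries folate into cerebrospinal fluid, had 48.3 in hippo8, 20.7 in the median column and 5.1 in hippo23. For this gene hippo8 did not stand apart, since hippo10 reached 46.7.

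Among the genes that move ions and water, Clic6, of the intracellular chloride channel family, had a normalized count of 98.3 in hippo8, 12.8 in the median column and 1.58 in hippo5. The second highest Clic6 value was 30.3 in hippo18. Slc4a5, a sodium bicarbonate cotransporter, had 49.4 in hippo8, a median of 10.01 and 4.05 in hippo6, and its second highest value was 27.7 in hippo23. In hippo8 these values were 7.87 times (Clic6) and 4.97 times (Slc4a5) the median of the other columns. Kcnj13, an inward rectifier potassium channel of the apical membrane, had 25.5 in hippo8, a median of 4.72 and 0.977 in hippo22, which is about 1 read. Its next highest value was 9.87 in hippo18. In the RefSeq annotation Kcnj13 lies within the span of Gigyf2, and the sources used here do not state the strand setting of the counting, so its value carries that uncertainty. The same holds for Slc4a5 and F5, each of which overlaps an unnamed gene in that annotation. Aqp1, the water channel of the apical membrane, had 35.1 in hippo8, a median of 12.8 and 5.72 in hippo6, with 25.6 in hippo30 as the next highest.

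The remaining 2 members are secreted proteins. Sostdc1, an inhibitor of Wnt and BMP signals, had a normalized count of 26.4 in hippo8 and a median of 2.02, and it was listed at 0 in hippo11, hippo13 and hippo27. No column other than hippo8 exceeded 6.29, so apart from hippo8 this gene rested on a handful of reads. F5, coagulation factor V, had 22.7 in hippo8, 12.3 in the median column and 5.05 in hippo18. It had the narrowest range of the 9, 1.97 (log2), and hippo8 was only 1.12 times the next column, hippo25 at 20.2.

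Gene by gene, 8 of the 9 members were at least 2 times as high in hippo8 as the median of the other 35 columns, the exception being F5 at 1.87 times. Of the 7 members with a mean of at least 10, 6 passed that fold, against 0.277% of the 15893 genes of the table with such a mean. The median difference of hippo8 from the median of the other columns was 2.28 (log2) over the 9 members and -0.00047 over all genes with that mean. Ttr made up 82.3% of the summed normalized counts of the 9 genes in hippo8, and 31.3% in the median of the other columns. Hippo8 was singled out after its values were seen, so these counts describe that column and were not tested.

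Below hippo8 the order of the columns differed from gene to gene. The second highest values of the 9 genes fell in 8 different columns. So did the lowest values when the 0 of Sostdc1, shared by hippo11, hippo13 and hippo27, was counted in hippo13 only. Hippo30 held the second highest Aqp1 and the lowest Kl, hippo23 the second highest Slc4a5 and the lowest Folr1, and hippo18 the second highest Clic6 and Kcnj13 and the lowest F5. At these levels counting error is large. Over the other 35 columns the variance of the normalized count divided by its mean, which is about 1 for pure counting noise, was 1.05 for Sostdc1, 1.44 for F5, 1.51 for Kl, 1.52 for Kcnj13 and 1.78 for Aqp1. For the 1823 genes of the table with means from 5 to 25 over these columns the same ratio had a median of 1.37 and quartiles of 1.09 and 1.80. For the 1711 genes with means from 1 to 5, the band of Kcnj13 and Sostdc1, the median was 1.19 and the upper quartile 1.55. All 5 members lay under the upper quartile of their band. The ratio was 2.11 for Slc4a5, 3.31 for Folr1 and 4.04 for Clic6, all above the upper quartile of their band. For Ttr it was 125, against an upper quartile of 2.61 for the 1979 genes with means from 25 to 100.

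Joint rise and fall was measured as the correlation of log2(normalized count + 1) over columns for all 36 pairs of the 9 genes. Across the 36 columns r was above 0 in 34 pairs, with a median of 0.336 and a highest value of 0.729. By a two-sided permutation test with Benjamini-Hochberg adjustment over the 36 pairs, 14 pairs passed an adjusted p of 0.05. Without hippo8 the median r was 0.10, r was lower in all 36 pairs, and 1 pair passed. Hippo8 was singled out because it held the highest value of all 9 genes. A lower r without it was therefore close to fixed in advance and is a description only. With rank correlation, which limits the weight of any single column, 4 pairs passed in 36 columns and 3 passed without hippo8. Of the 14 pairs that passed by Pearson r in 36 columns, 1 also passed without hippo8, which again is a description only. Leaving out any column other than hippo8 gave at least 12 passing pairs.

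**Figure D2:**
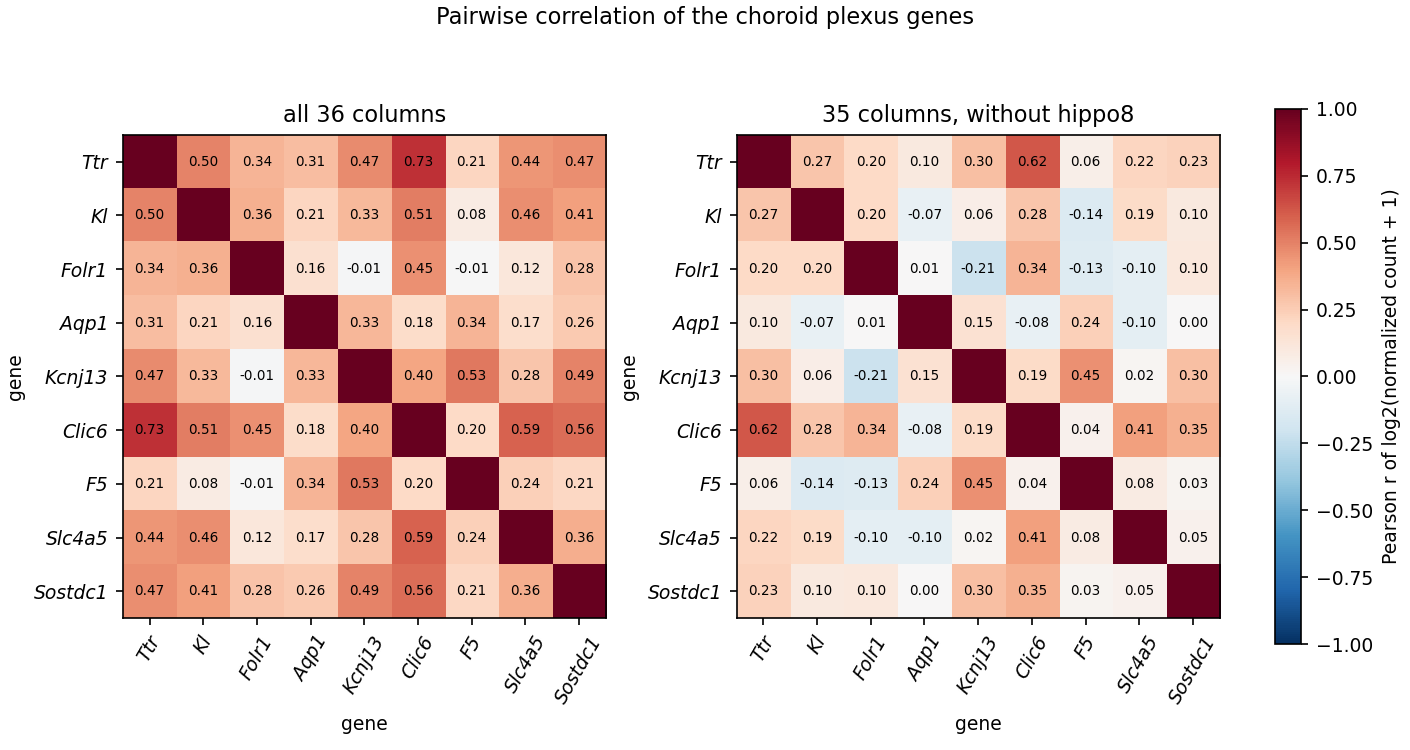
Pearson r of log2(normalized count + 1) for each pair of the 9 genes (both axes), over all 36 columns on the left and over the 35 columns without hippo8 on the right; red is a positive and blue a negative r. The median of the 36 pairs is 0.336 on the left and 0.10 on the right, and Ttr with Clic6 is the strongest pair in both, at 0.729 and 0.623.

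Ttr and Clic6 had a Pearson r of 0.729 and a Spearman rho of 0.654 over 36 columns (two-sided permutation p = 1e-05, the smallest that 100000 permutations can give, adjusted p = 0.00036, for r; adjusted permutation p = 0.00108 for rho). Leaving out the 2 columns farthest from the median of Ttr, hippo8 and hippo35, gave an r of 0.655. Without hippo8 alone r was 0.623 (adjusted permutation p = 0.0036) and rho was 0.623 (adjusted permutation p = 0.00396). Among the 15892 other genes with a mean of at least 10, Clic6 was the gene most like Ttr by r over 36 columns and the fifth without hippo8, where Sdpr came first at 0.716. An r of at least 0.5 to Ttr was reached by 1 of the 6 other members with such a mean, against 0.503% of those genes.

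Clic6 and Slc4a5 had an r of 0.591 and a rho of 0.595 (adjusted permutation p = 0.0054 for r and 0.00306 for rho). Without the 2 columns farthest from the median of Clic6, hippo8 and hippo5, r was 0.477. Without hippo8, r was 0.413, which missed the threshold (adjusted permutation p = 0.161), while rho was 0.559 and passed it (adjusted permutation p = 0.00936). Kcnj13 and F5 had an r of 0.529 and a rho of 0.518 (adjusted permutation p = 0.00882 for r and 0.0157 for rho), and r without hippo8 and hippo22 was 0.400. Without hippo8, r was 0.454 (adjusted permutation p = 0.112) and rho 0.476 (adjusted permutation p = 0.0481). Folr1 and Clic6 had an r of 0.454 and a rho of 0.477 (adjusted permutation p = 0.0228 for r and 0.0339 for rho), and r without hippo23 and hippo16 was 0.488. Without hippo8 neither passed, with an r of 0.338 (adjusted permutation p = 0.341) and a rho of 0.431 (adjusted permutation p = 0.0886).

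Each gene was also set against the mean log2 level of the other 8 members. Clic6 followed that mean most closely, with an r of 0.770 over 36 columns and 0.654 without hippo8. Ttr came next, at 0.707 and 0.564. Levels were not scaled before averaging, and Ttr had the largest log2 SD, 1.714 over 36 columns and 1.486 without hippo8. The next largest were 0.902 (Sostdc1) and 0.763 (Clic6). For every gene but Ttr, the mean of the others therefore leaned on Ttr. The r of Clic6 thus partly restates its pair with Ttr, whose r was 0.729 and 0.623 without hippo8. Sostdc1, Kl, Kcnj13 and Slc4a5 had r of 0.60, 0.574, 0.547 and 0.531 with hippo8, and of 0.316, 0.262, 0.336 and 0.223 without it. Aqp1, Folr1 and F5 followed the others least, with r of 0.362, 0.346 and 0.325 over 36 columns and of 0.0677, 0.144 and 0.144 without hippo8. Aqp1 was in 0 of the 14 passing pairs, and Clic6 in 6.

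**Figure D3:**
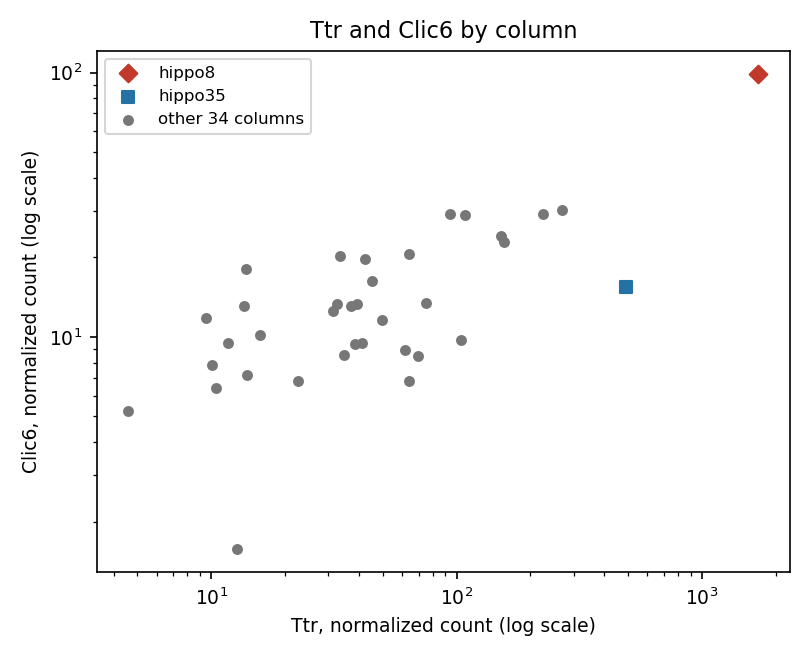
Normalized counts of Ttr (x axis, log scale) and Clic6 (y axis, log scale) in each of the 36 columns. Hippo8 (red diamond) is highest on both axes at 1699 and 98.3, and hippo35 (blue square) has the second highest Ttr, 489, with a Clic6 of 15.4.

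High Ttr came with differing levels of Clic6. In hippo8 Ttr stood 1659 above the median of the other 35 columns and Clic6 85.8 above it. In hippo18 Ttr stood 230.5 above that median and Clic6 17.8, and in hippo10 they stood 185 and 16.7 above it. In hippo35 Ttr stood 449 above it and Clic6 2.92, which is less than the SD of Clic6 over the 35 columns without hippo8 (7.54), and the Clic6 count of 15.4 was the 13th highest of 36. The other members in hippo35 included Kl at 5.37, Slc4a5 at 9.93 and Folr1 at 30.5. Hippo35 thus had more Ttr than hippo18 or hippo10 and less Clic6, Kl, Slc4a5, Aqp1, Kcnj13 and Sostdc1. For Kcnj13 and Sostdc1 these gaps were a few reads at most. Kcnj13 stood at 6.25 in hippo35, 9.87 in hippo18 and 9.17 in hippo10, and Sostdc1 at 2.68, 2.96 and 4.07. Folr1 and F5 went the other way against hippo18, where they stood at 21.8 and 5.05, with F5 at 14.4 in hippo35. Both were lower in hippo35 than in hippo10, where they stood at 46.7 and 17.1. Hippo10, second to hippo8 in the mean log2 level of the 9 genes (4.47 in hippo10 and 5.98 in hippo8), had Ttr at 225, Clic6 at 29.2 and Folr1 at 46.7.

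The 20 genes outside the 9 with the pattern most like their mean log2 level had r from 0.558 to 0.725 over 36 columns. That mean, also used for the marker lists below, was unscaled, so Ttr, with the largest log2 SD, weighed most in it. An r of at least 0.5 was reached by 0.516% of 15886 genes with a mean of at least 10, and an r of at least 0.8 by 0%, that is by 0 genes. Mfrp, a membrane frizzled-related protein also on the list of further choroid plexus genes, came first with an r of 0.725 and 0.531 without hippo8. Its normalized count was 57.0 in hippo8, against a median of 19.3 in the other columns. Cdkn1c, a cell cycle inhibitor, Cldn2, a claudin of leaky epithelia, Vmo1 and LOC100911615 were also highest in hippo8. For Cldn2 r was 0.566, and 0.331 without hippo8. The highest value lay in hippo17 for 13 of the 20, among them the myelin genes Mag (r = 0.570) and Cnp (r = 0.560), Plekhb1, Carns1, Galnt6, Npc1, Arhgef10, Ptp4a3, Carhsp1, Pcsk6, Akr7a3 and Enpp2, with a row that has no gene symbol. Vamp8 and Cib1 were highest in hippo10. Hippo17 held the highest or lowest value of 3663 genes with a mean of at least 10, against 713 in the median column and 493 in hippo8. That count pools highest and lowest values, so it gives no share to set directly beside the 13 of 20. Of the 20, 5 were also among the 20 most alike without hippo8.

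**Figure D4:**
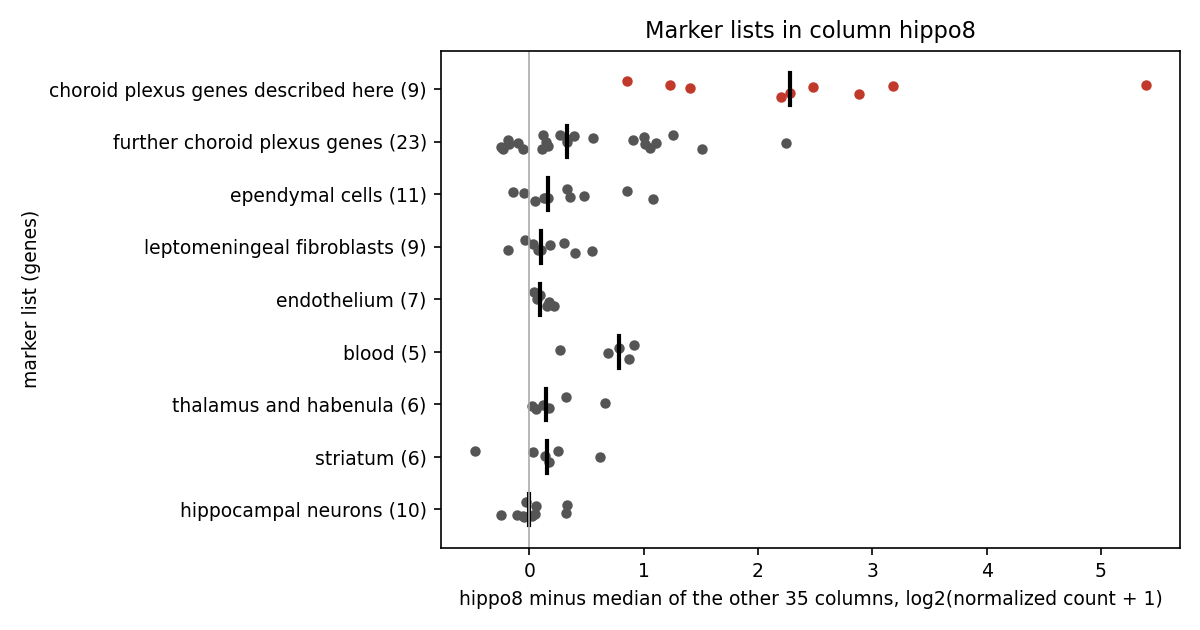
Each point is a gene; the x axis is its log2(normalized count + 1) in hippo8 minus the median of the other 35 columns, the y axis the marker list with its number of genes, and the black bar the list median. The 9 choroid plexus genes (red) have a median of 2.28, the 23 further choroid plexus genes 0.33 and the 10 hippocampal neuron genes -0.00036.

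Further genes known from choroid plexus were taken from a list of 24, of which 23 were measured. That list was chosen with earlier results of these data known, so its counts describe hippo8 and were not tested. In hippo8, 7 of the 23 were at least 1 above the median of the other columns on the log2(value + 1) scale, against 1.62% of all 20603 genes, and 6 held their highest value there, against 1.79% of all genes. Of the 23, 17 lay above the median of the other columns, against 47.1% of all genes. Tmem72 had a normalized count of 34.3 in hippo8, against a median of 6.44 and a highest value of 15.1 in the other columns. Mfrp, Cldn2, Abca4, Steap1 and Lmx1a were the other 5 with their highest value in hippo8, and Krt18 was the seventh past that difference. Of the rest, Cox8b had 15.8 in hippo8 against a median of 7.93 in the others, and Krt8 had 51.2 against 34.4, both within the range of the other columns. Enpp2 had 3220 in hippo8, against a median of 2458 in the others, and Car12 had 3357 against 3991. Over the list the median difference was 0.33 (log2), and the r to the members' mean ran from 0.725 for Mfrp to -0.362 for Car12. The list median of r was 0.282 with hippo8 and 0.109 without it. Many genes of this list are also made by other cells of the brain. Their sum lay between 9575 and 11757, with 10729 in hippo8, but Car12, Enpp2 and Trpm3, with medians of 3969, 2459 and 1315 over all columns, made up most of it, so it says little of the lower genes. For the 9 members that sum was 2064 in hippo8, against a median of 128 in the other columns.

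Markers of neighbouring tissues were set beside hippo8, and their part in the pattern was not tested. Counts above the median of the other columns are to be read against the 47.1% of all genes that lay above it. Of 11 measured ependymal genes, 9 lay above the median of the other columns, with a median difference of 0.17 (log2), and 1, Dynlrb2, was highest in hippo8. The ependymal sum was 1656 in hippo8, against a median of 1453 in the other columns and a range of 1135 to 1836 over all. The r to the members' mean ran from 0.477 (Dynlrb2) to -0.191 (Rsph1). Of 9 leptomeningeal fibroblast genes 0 were highest in hippo8, while 7 lay above the median of the others, with a median difference of 0.10; the sum was 2210 in hippo8 and 1666 to 2545 over all columns, and r ran from 0.370 (Igf2) to -0.242 (Dcn). Of 7 endothelial genes 7 lay above the median of the others by a median of 0.10, with a sum of 7999 in hippo8 and 6943 to 10239 over all, and r from 0.348 (Cldn5) to 0.0443 (Tek).

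All 5 measured blood genes lay above the median of the other columns in hippo8, by a median of 0.78 (log2). Their sum was 9773 in hippo8, against a median of 5602 in the others and a range of 1869 to 14936 over all columns, so hippo8 was within the range. The r to the members' mean ran from 0.398 (Hbb) to 0.380 (Slc4a1), and its list median was 0.391 with hippo8 and 0.338 without it. All 6 thalamic and habenular genes lay above the median of the others, by a median of 0.15, with r from 0.377 (Tcf7l2) to -0.215 (Tac1). Prkcd was highest in hippo8, at 415 against 406 in the next column. Slc17a6 had 706 in hippo8 against a median of 447 in the others, and was highest in hippo17 at 750. Of the 6 striatal genes 5 lay above the median of the others, and the median difference was 0.16, with r from 0.323 (Ppp1r1b) to -0.391 (Penk). The sum was 2133 in hippo8 and 1545 to 2270 over all columns for the thalamic list, and 4279 in hippo8 and 3549 to 4669 over all for the striatal list. The 10 hippocampal neuron genes differed by a median of -0.00036 in hippo8, with 5 above and 5 below the median of the others. Their sum was 46109 in hippo8, against a median of 46976 in the other columns and a range of 35625 to 55951, and r ran from 0.127 (Bok) to -0.283 (C1ql2). No gene measured in these lists was at 0 in all columns.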

How the data were processed

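Total RNA of frozen hippocampus from 36 female rats had been sequenced. Kallisto 0.43 and DESeq2 appear in the submitters' processing notes, which state no role for either; the sources used here do not name a transcriptome build. The deposited table holds a normalized count per gene and column, treated as a signal that the authors had scaled; values are not whole numbers and raw counts were not used. Each of the 36 columns was assigned to the hippocampus as a whole, because its name gives the tissue and no sample, so 0 columns were left out. No comparison of age or cycle status was made, and no count model was run. The genes and marker lists were chosen with earlier results of these data known.

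Values were taken as log2(value + 1) in Python 3.11.15 with numpy 2.4.6 and pandas 2.3.3. Pairs were tested by Pearson and Spearman correlation with 100000 permutations of the columns, two-sided, with Benjamini-Hochberg adjustment over 36 pairs, since the planned 45 needed Otx2. The columns mix the 6 label groups, and whether they are separate animals rests on the labels. Each permutation p gives how often shuffled columns reached a correlation at least as large in size, which treats the columns as exchangeable. The columns formed no separate clusters of 3 or more, since the largest gap in the mean of the members, 49.1% of its range, set hippo8 alone apart. The closest 2 columns differed by more than counting noise: their squared difference over their sum had a median of 0.891 over genes, against 0.455 for noise alone. The correlation steps were tested on simulated data, for genes with a mean of at least 10 and a factor shared over all columns. That setting covers neither Kcnj13 and Sostdc1, whose means are lower, nor a pattern set by 1 column. Named genes were the 9 members, the 20 most alike genes with a mean of at least 10, and the highest and lowest r in each list. Gene symbols matched RefSeq (GRCr8) for 15699 of 20603 rows; promoters are from that table. The bounds of r at 0.5 and of 2-fold, the differences of Ttr and Clic6 from their medians and the attention to hippo8 and hippo35 were set after seeing the data.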

Additional observations from a re-analysis of the deposited data

How the results depend on the processing

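Leaving out each column in turn, an alternative chosen after seeing the data, the median pairwise r ran from 0.10 (without hippo8) to 0.369, and the number of pairs past the threshold from 1 (without hippo8) to 17, against 0.336 and 14 with all columns. Without the 2 columns farthest in the members' mean, hippo8 and hippo10, the median r was 0.065 and 1 pair passed. A pseudocount of 10 gave 23 pairs, and values not logged gave 31 pairs, where the median r was 0.581. Rank correlation gave 4 pairs; the cause of these differences was not tested. A pseudocount of 0.5, both rescalings and leaving out the members with a mean under 10 moved the median r by less than its spread over pairs (SD 0.168). The number of outside genes with r of at least 0.8 was 0 in every setting tried.

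With a pseudocount of 10 the log2 range was 2.54 for Kl, 1.95 for Folr1, 1.52 for Aqp1, 1.69 for Kcnj13, 3.23 for Clic6, 1.12 for F5, 2.08 for Slc4a5 and 1.87 for Sostdc1, and with 0.5 it was 5.75 for Sostdc1. Without hippo8, with or without hippo10, the range was 6.45 for Ttr, 2.62 for Kl, 2.46 for Kcnj13, 3.60 for Clic6, 2.50 for Slc4a5 and 2.87 for Sostdc1. Without hippo8 alone it was 2.97 for Folr1, 1.98 for Aqp1 and 1.81 for F5. Low read numbers limit Kcnj13 and Sostdc1 most.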
